A study of Homo sapiens with 6 samples.

Results

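The enzymes that make and balance the deoxynucleotides used for DNA synthesis were followed in WI38 cells, a line of diploid human lung fibroblasts, after depletion of MALAT1, a nuclear long noncoding RNA. The set holds 9 genes chosen by symbol: RRM1, RRM2, TYMS, TK1, TK2, DCK, DUT, DTYMK and SAMHD1. On the exon array used, 8 of the 9 had probesets that name them alone, 99 probesets in all out of 232479, and 7 had the 3 or more required for the main test, out of 15417 genes tested. RRM2 had 2 probesets, so its gene value was tested only in a second fit over the 16573 genes with at least 1, and DTYMK had none under its symbol or a synonym and was not analysed here. Cells received the MALAT1 antisense oligonucleotide AS1, the MALAT1 antisense oligonucleotide AS2, or a control oligonucleotide (Ctr), each at 100 nM in 2 transfections with 24 h between them, and 2 arrays were deposited for each group. All values are on the log2 scale of RMA, a method that turns the brightness of an array's probes into 1 value per probeset, and the probesets of a gene were averaged on each array. Nothing in the labels says whether the arrays of a group came from separate cultures, so the p-values reflect the spread between these arrays, which may be technical.

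Cells obtain deoxynucleotides along 2 routes. In the first, ribonucleotide reductase converts ribonucleotides, and thymidylate synthase then makes thymidylate from a precursor that dUTPase supplies. In the second, deoxynucleoside kinases salvage free nucleosides. RRM2, TYMS and TK1 are known to be high in cells that replicate DNA, whereas TK2 works in mitochondria and SAMHD1 breaks deoxynucleotides down, most of all in cells that do not divide.

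The antisense oligonucleotides define the groups. They were phosphorothioate DNA of 20 bases each, with 50% G or C in AS1 and 30% in AS2, and their sequences, from the study's table of oligonucleotides, are printed 5′ to 3′.
MALAT1-AS1: gggagttacttgccaacttg
MALAT1-AS2: atggaggtatgacatataat

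The labels held for the targeted RNA. MALAT1 was at 9.23 and 7.82 with AS1, 8.19 and 8.13 with AS2 and 12.00 and 11.97 with Ctr, with all 4 oligonucleotide arrays under both Ctr arrays. It fell by 3.64 ± 0.29 in the mean of both (standard error, 2 arrays per group, limma adjusted p = 1.85e-05). Array medians lay between 7.34 and 7.36, and arrays of 1 group correlated at 0.984 to 0.987 over all probesets. Of 4 measured epithelial and 5 measured leukocyte marker genes none was called at a limma adjusted p under 0.05, and 1 epithelial and 0 leukocyte genes had an unadjusted p under 0.05. The epithelial mean ran from 5.03 to 5.30 on the oligonucleotide arrays and from 5.17 to 5.38 with Ctr, and the leukocyte mean from 4.70 to 4.90 on the oligonucleotide arrays, with 5.0 and 4.76 on the first and second Ctr array. Of 5 endothelial genes, the adhesion molecule PECAM1 was higher (0.76 ± 0.12, adjusted p = 0.00122) and the receptor kinase TEK lower (-0.61 ± 0.15, adjusted p = 0.0142, and -0.55, adjusted p = 0.0599, without the first Ctr array), and the mean of the 5 ran from 5.91 to 6.07 on the oligonucleotide arrays and from 5.88 to 6.07 with Ctr. PECAM1 was dim with Ctr (4.84 and 4.62), under 5.44, the 25th percentile of probeset brightness. Of 10 measured fibroblast genes, 4 were called lower, where 10.7% of all genes were, the largest change being in the collagen COL3A1 (-1.19 ± 0.15, adjusted p = 0.000323). The mean of the 10 ran from 10.3 to 10.7 on the oligonucleotide arrays and from 10.9 to 11.05 on the Ctr arrays. In bulk RNA, fewer cells of a kind and less RNA per cell cannot be told apart.

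Against Ctr, RRM2, TK1, DUT and TYMS were lower and DCK was higher in the mean of AS1 and AS2, while RRM1, TK2 and SAMHD1 did not pass the test. A call here is a Benjamini-Hochberg adjusted p under 0.05 in limma over all genes of the fit. Among the 7 members with at least 3 probesets, 3 were called lower, where 10.7% of all genes were, and 1 was called higher, where 14.1% were. RRM2 was called lower in the fit that admits it, where 9.61% of genes were. Over the 8 measured members, all 4 oligonucleotide arrays lay below both Ctr arrays for 4 (RRM2, TYMS, TK1 and DUT), against 19.5% of genes, and above both for 2 (TK2 and DCK), against 20.8% of genes.

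**Figure D1:**
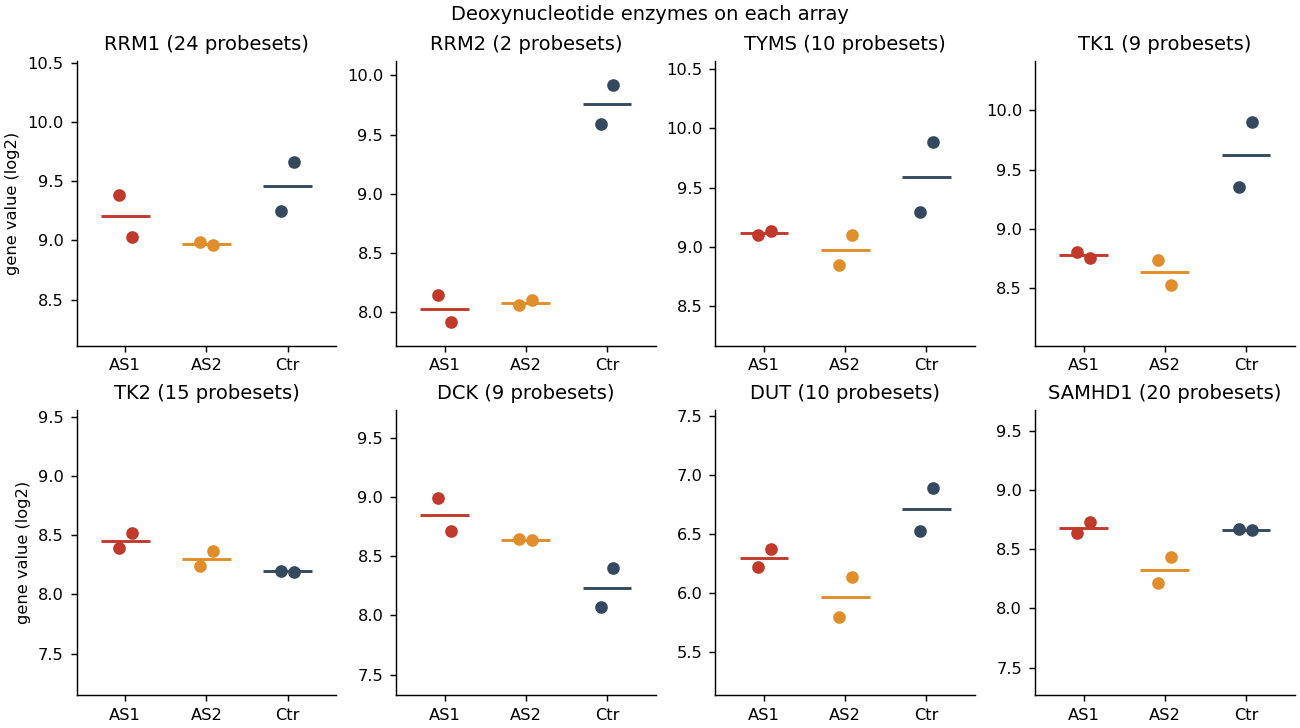
Gene value (log2) of the 8 measured members on each of the 6 arrays, with AS1, AS2 and Ctr from left to right. Points are arrays, horizontal lines are group means of 2 arrays, and every panel spans the same number of log2 units, each around its own level. RRM2 shows the widest gap, from 7.92 to 8.14 on the oligonucleotide arrays and 9.59 and 9.92 with Ctr.

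RRM2 encodes the small subunit of ribonucleotide reductase that carries the radical and is made in S phase. Its gene value was 8.14 and 7.92 with AS1, 8.06 and 8.10 with AS2, and 9.59 and 9.92 with Ctr. The 4 oligonucleotide arrays lay within a narrow band, well under both Ctr arrays. The change was -1.73 ± 0.15 with AS1 (limma adjusted p = 0.000267) and -1.68 ± 0.15 with AS2 (adjusted p = 0.0002), where 7.2% and 8.16% of the genes in this fit were called lower. In the mean of both it was -1.70 ± 0.13 (adjusted p = 7.62e-05), or 30.8% of the Ctr level. Each of its 2 probesets passed on its own: 2469277 at -1.62 ± 0.18 (adjusted p = 0.00565) and 2469278 at -1.78 ± 0.19 (adjusted p = 0.00563). RRM2 was called in the mean of both under each setting tried, with changes of -1.54 to -1.87 when 1 array was left out. C2orf48, which the platform lists apart, is now a synonym of RRM2 in RefSeq, and its probesets were not counted here.

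RRM1 encodes the large subunit, which holds the catalytic site. It was at 9.38 and 9.03 with AS1, 8.99 and 8.96 with AS2, and 9.25 and 9.66 with Ctr. The groups overlap, because the first AS1 array lies between the Ctr arrays, and the mean change of -0.37 ± 0.15 was not called (limma adjusted p = 0.0997). Its 95% interval runs from -0.70 to -0.04, and the change passed when either the first AS1 array (-0.46, adjusted p = 0.0256) or the first Ctr array (-0.58, adjusted p = 0.028) was left out. It was smaller without the second Ctr array (-0.16, adjusted p = 0.536) or the second AS1 array (-0.28, adjusted p = 0.173). With AS2 alone it was -0.48 (adjusted p = 0.0717), and it passed without either AS1 array (-0.48, adjusted p = 0.0276 each time) or the first Ctr array (-0.69, adjusted p = 0.0179). Of its 24 probesets, 23 were lower in the mean of both and none was called, with 10 at an unadjusted p under 0.05. The share of all probesets under that unadjusted level was not computed, here or for the other members. Probesets of 1 gene were read on the same 6 arrays, so they are not independent. The RRM1 probeset that was not lower was 3318023 at 0.49 ± 0.58, whose Ctr arrays lie far apart, at 6.04 and 8.19. Relative to the other RRM1 probesets it was higher by an amount that passed (0.92, limma diffSplice t test adjusted p = 0.0249), while the F test over the gene did not (adjusted p = 0.73).

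Within each array, RRM2 minus RRM1 was -1.24 and -1.11 with AS1, -0.93 and -0.86 with AS2, and 0.34 and 0.26 with Ctr. This difference moved by -1.33 between the oligonucleotide and the Ctr arrays, and it was lower on each oligonucleotide array than on both Ctr arrays. The exact two-sided permutation test gave p = 0.0667, the smallest that 15 splits of 6 arrays allow.

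RRM2B, the small subunit that p53 induces and that serves cells outside S phase, was higher. Its 3 probesets averaged 9.01 and 9.07 with AS1, 8.85 and 9.20 with AS2, and 8.04 and 8.09 with Ctr, with no overlap. The mean change was 0.97 ± 0.13 (limma adjusted p = 0.000356). RRM2B was looked at as a member of a wider list of genes of deoxynucleotide supply, not of the 9.

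**Figure D2:**
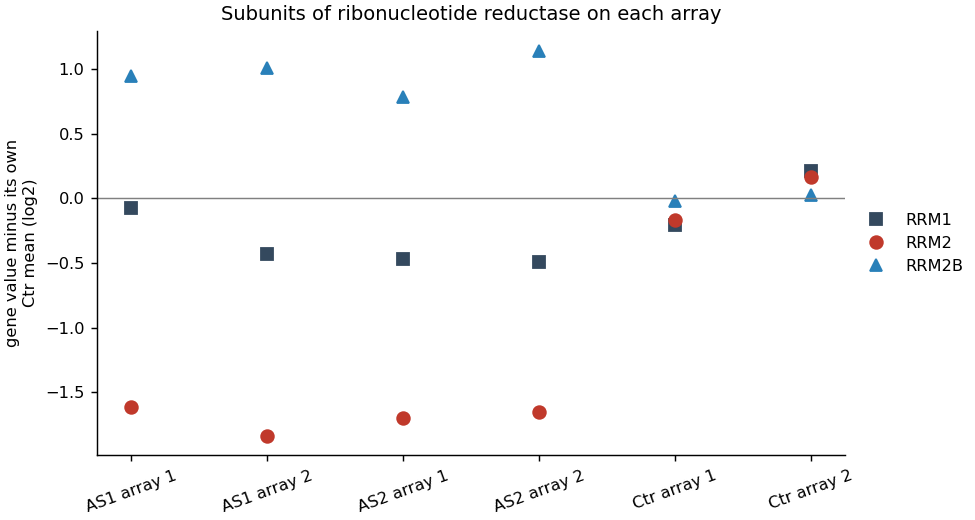
Value of RRM1, RRM2 and RRM2B on each array minus the gene's own Ctr mean (log2), with the AS1, AS2 and Ctr arrays from left to right. On the 4 oligonucleotide arrays RRM2B lies above 0 and RRM2 below 0, with RRM1 between them.

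TYMS, thymidylate synthase, makes thymidylate anew from deoxyuridylate. Its value was 9.10 and 9.13 with AS1, 8.84 and 9.10 with AS2, and 9.29 and 9.89 with Ctr. All 4 oligonucleotide arrays lay below the lower Ctr array, by a margin smaller than the gap between the 2 Ctr arrays. The change was -0.48 ± 0.19 with AS1 (limma adjusted p = 0.107), -0.62 ± 0.19 with AS2 (adjusted p = 0.0395) and -0.55 ± 0.16 in the mean of both (adjusted p = 0.0312), or 68.4% of the Ctr level. Each of its 10 probesets was lower in the mean and none was called on its own, with 4 at an unadjusted p under 0.05. The mean change rests on the second Ctr array: without it the change was -0.25 (adjusted p = 0.325), and without the first or second AS2 array it was -0.48 and -0.61 (adjusted p = 0.115 and 0.0629). Without the first Ctr array it was -0.85 (adjusted p = 0.00164), and AS1 alone then passed too (-0.77, adjusted p = 0.00793). The call with AS2 alone was lost without the first AS2 array (-0.49, adjusted p = 0.263), the second AS2 array (-0.75, adjusted p = 0.113) or the second Ctr array (-0.32, adjusted p = 0.278). In RefSeq TYMS overlaps TYMSOS and ENOSF1, and whether its probesets also read these was not tested.

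DUT, the dUTPase, removes dUTP and so both keeps uracil out of DNA and provides deoxyuridylate for TYMS. It was at 6.22 and 6.37 with AS1, 5.80 and 6.14 with AS2, and 6.53 and 6.89 with Ctr. The oligonucleotide arrays all lay below both Ctr arrays, the AS2 arrays lowest. The change was -0.41 ± 0.17 with AS1 (limma adjusted p = 0.117), -0.74 ± 0.17 with AS2 (adjusted p = 0.00989) and -0.57 ± 0.14 in the mean of both (adjusted p = 0.0142). Without the second Ctr array the mean change was -0.40 (adjusted p = 0.134), and without the first AS2 array -0.49 (adjusted p = 0.0599). The call with AS2 alone was lost without the same arrays, at -0.56 without the second Ctr array (adjusted p = 0.0577) and -0.57 without the first AS2 array (adjusted p = 0.113), and AS1 alone passed without the first Ctr array (-0.59, adjusted p = 0.047).

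The 10 DUT probesets ranged from -1.33 to 0.19. In the mean of both oligonucleotides, 3593168 was at -1.33 ± 0.19 and was the 1 that passed (limma adjusted p = 0.0105), with 6.97 and 6.92 with AS1, 6.43 and 6.30 with AS2, and 7.73 and 8.24 with Ctr. The nearby 3593171 was at -1.06 ± 0.34. Changes between -0.46 and -0.60 were seen at 3593157, 3593158, 3593161, 3593172 and 3593173, none of them called, and 3593172, at 2.64 to 3.44 on the 6 arrays, lay under the brightness filter of the test for unequal changes. The first in number, 3593154 and 3593155, were at -0.20 ± 0.28 and 0.19 ± 0.30. Probeset 3593170 was at -0.70 ± 0.93 because its arrays scatter, with 3.53 and 6.80 on the AS2 arrays. No unequal change between the DUT probesets was called (limma diffSplice F test, adjusted p = 0.764). DUT overlaps DUT-AS1 in RefSeq, and the part of that transcript was not tested.

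TK1, the cytosolic thymidine kinase of the salvage route, rises at the start of S phase in dividing cells. It was at 8.80 and 8.75 with AS1, 8.74 and 8.53 with AS2, and 9.35 and 9.90 with Ctr, with no overlap. The change was -0.85 ± 0.18 with AS1 (limma adjusted p = 0.00747), -0.99 ± 0.18 with AS2 (adjusted p = 0.003) and -0.92 ± 0.15 in the mean of both (adjusted p = 0.00159), or 52.9% of the Ctr level. With AS2 the call was lost when the second AS2 array was left out (-0.88, adjusted p = 0.059), while the mean of both kept its call with any 1 array left out, at -0.64 without the second Ctr array and -1.19 without the first.

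On each of the 9 TK1 probesets the oligonucleotide arrays lay below both Ctr arrays, and 7 of the 9 were called. The largest change was at 3772166 (-1.27 ± 0.18, limma adjusted p = 0.0115). The smallest was at 3772168 (-0.35 ± 0.21, adjusted p = 0.346), with 10.6 and 11.1 with AS1, 11.1 and 10.6 with AS2, and 11.1 and 11.3 with Ctr. Over the 99 probesets of the members, 10 were called lower (2 of RRM2, 7 of TK1 and 1 of DUT), where 5.15% of all probesets were, and 2 higher, both of DCK, where 5.61% were. The total of 12 calls became 2 to 7 when 1 array was left out, the 2 being without the second Ctr array.

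TK2, the thymidine kinase of mitochondria, is made throughout the cell cycle. Its value was 8.39 and 8.52 with AS1, 8.24 and 8.36 with AS2, and 8.20 and 8.19 with Ctr. All 4 oligonucleotide arrays lay above both Ctr arrays, but by little, and the mean change of 0.18 ± 0.11 was not called (limma adjusted p = 0.288), with a 95% interval from -0.06 to 0.43. Within each array, TK1 minus TK2 was 0.41 and 0.24 with AS1, 0.50 and 0.17 with AS2, and 1.15 and 1.71 with Ctr. This difference moved by -1.10 (exact two-sided permutation test p = 0.0667, the smallest possible), and by -0.82 without the second Ctr array.

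DCK, deoxycytidine kinase, starts the salvage of deoxycytidine, deoxyadenosine and deoxyguanosine in the cytosol. It was the 1 member called higher. Its value was 8.99 and 8.71 with AS1, 8.65 and 8.63 with AS2, and 8.07 and 8.40 with Ctr, without overlap. The change was 0.62 ± 0.16 with AS1 (limma adjusted p = 0.0187), 0.40 ± 0.16 with AS2 (adjusted p = 0.097) and 0.51 ± 0.13 in the mean of both (adjusted p = 0.0181). Without the first Ctr array the mean change was 0.34 (adjusted p = 0.197), and without the first or second AS2 array it was 0.51 each time (adjusted p = 0.0627 and 0.066). With AS1 the call was also lost without the first AS1 array (0.47, adjusted p = 0.0995) or the first Ctr array (0.45, adjusted p = 0.126), and with AS2 the change passed without the second Ctr array (0.57, adjusted p = 0.0435).

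**Figure D3:**
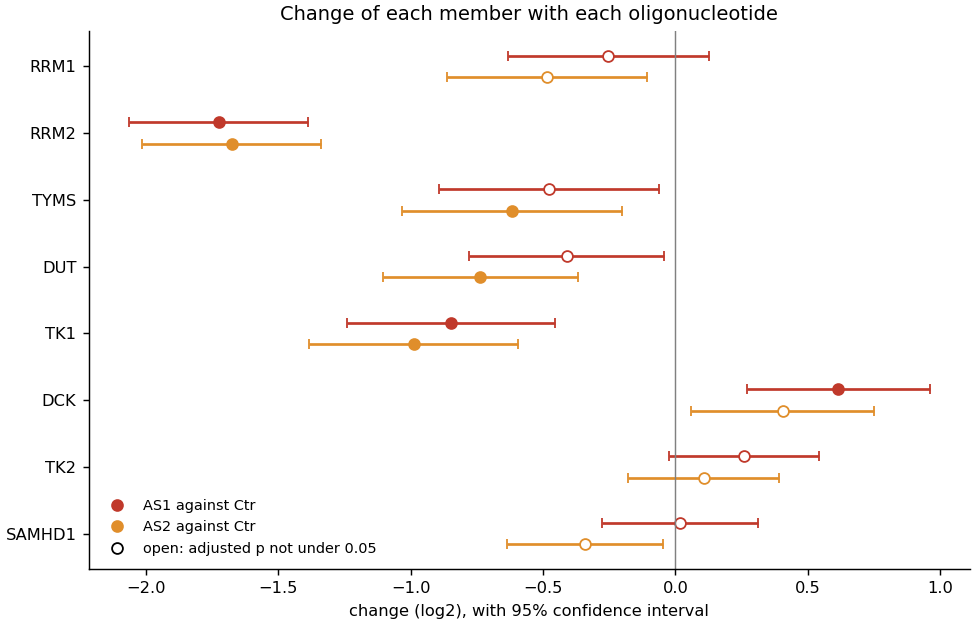
Change (log2) of each measured member with AS1 and with AS2 against Ctr, with 95% confidence intervals from limma. Filled points passed at an adjusted p under 0.05 (RRM2 and TK1 with both, DCK with AS1, TYMS and DUT with AS2).

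The probesets of DCK did not move by the same amount. Of the 9, 8 were higher in the mean of both, but 2730716 was at -0.47 ± 0.23, with 6.86 and 7.04 with AS1, 7.56 and 6.81 with AS2, and 7.57 and 7.51 with Ctr. By contrast 2730728 was at 1.20 ± 0.25 (limma adjusted p = 0.0331) and 2730727 at 1.05 ± 0.22 (adjusted p = 0.033). On 2730728 the AS1 arrays were at 9.72 and 9.35, the AS2 arrays at 8.87 and 9.33, and the Ctr arrays at 7.77 and 8.45. Relative to the other DCK probesets 2730716 was lower by an amount that passed (-1.11, limma diffSplice t test adjusted p = 0.00413), and the F test over the gene passed too (adjusted p = 0.00545).

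TK2 also passed the F test for unequal probeset changes (limma diffSplice adjusted p = 0.0345), though no single probeset was called in its own change, with 3 at an unadjusted p under 0.05. Its first 10 probesets in number order were all higher in the mean of both, from 0.06 to 0.60, whereas the next 4 were lower, from -0.16 to -0.07, and the last was at 0.12, a split described after the values were seen. The furthest from its neighbours was 3695111 at 0.60 ± 0.19, with 7.72 and 7.70 with AS1, 7.06 and 7.54 with AS2, and 6.75 and 7.06 with Ctr. DCK and TK2 were thus 2 of the 7 members tested, where 23.6% of 13312 genes passed. With AS1 alone the F test passed for DCK (adjusted p = 0.003) and TK2 (0.0115), and with AS2 alone for neither (0.242 and 0.664). The test assumes 1 spread for all probesets of a gene, and on simulated data in which each probeset had its own it made more false calls than its threshold allows, so these calls carry little weight. The F test of DCK was not called without the first AS1 array (adjusted p = 0.0562), the second AS2 array (0.172) or the first Ctr array (0.321), and that of TK2 not without either AS1 array (0.253 and 0.107), the second AS2 array (0.439) or the first Ctr array (1).

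**Figure D4:**
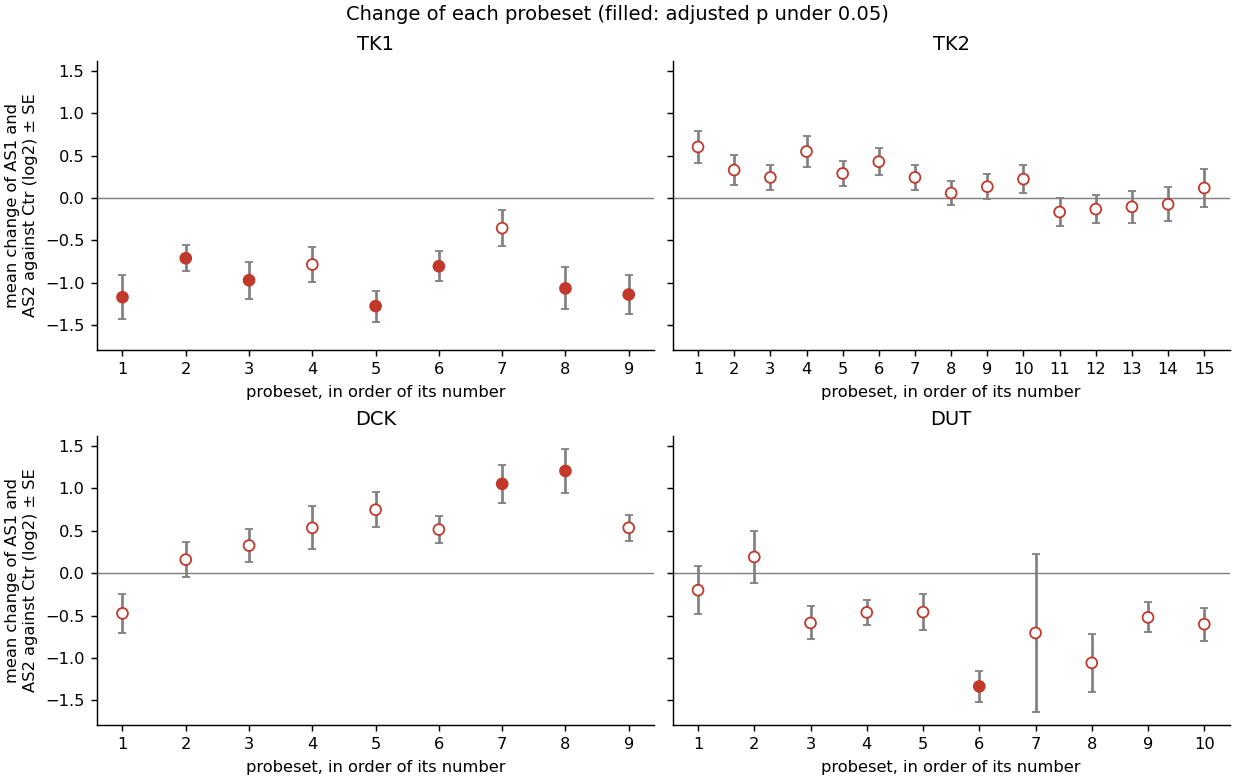
Mean change of AS1 and AS2 against Ctr (log2, ± standard error) of each probeset of TK1, TK2, DCK and DUT, in the order of the probeset numbers. Filled points passed at an adjusted p under 0.05 over all probesets: 7 in TK1, 2 in DCK, 1 in DUT and none in TK2.

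SAMHD1, a hydrolase that cuts deoxynucleotides to nucleosides and is known as a restriction factor of retroviruses, was at 8.63 and 8.73 with AS1, 8.21 and 8.43 with AS2, and 8.67 and 8.66 with Ctr. The AS1 arrays lay on either side of the Ctr pair and both AS2 arrays below it. The change was 0.02 ± 0.13 with AS1 (limma adjusted p = 0.943) and -0.34 ± 0.13 with AS2 (adjusted p = 0.1). Its 20 probesets changed by -0.65 to 0.18 in the mean of both, 14 lower and 6 higher, and none was called, with 4 at an unadjusted p under 0.05. The one furthest from the others by diffSplice, 3904732, was at -0.65 ± 0.26. SAMHD1 is induced by interferon in many cells, and 15 genes of the interferon response were measured beside it. Of these, 4 were called higher and 1 lower in the mean of both, where 14.1% and 10.7% of all genes were. The 4 were IFIT2 (3.09 ± 0.19, limma adjusted p = 5.14e-06), IFIT3 (2.05 ± 0.22), IFIT1 (1.34 ± 0.19) and IFIH1 (0.89 ± 0.11), which bind or sense foreign RNA. The change was called with each oligonucleotide for IFIT2 (4.28 with AS1 and 1.89 with AS2) and IFIT3 (3.05 with AS1 and 1.06 with AS2), but with AS1 alone for IFIT1 (2.61 with AS1 and 0.06 with AS2) and IFIH1 (1.58 with AS1 and 0.21 with AS2). With AS1 6 of the 15 were called higher, where 11.8% of genes were, and 0 lower. They included MX1 (0.87, limma adjusted p = 0.0174) and OAS2 (0.73, adjusted p = 0.0281), at 0.15 and 0.01 with AS2 and not called. With AS2 2 were called higher and 2 lower, where 11.6% and 9.29% of genes were, IRF9 among the latter (-0.46, adjusted p = 0.0396). With Ctr, IFIH1 (4.84 and 4.78) and OAS2 (4.69 and 4.53) were dim, under 5.44. The 1 called lower in the mean of both was DDX58 (-0.56 ± 0.14), the RNA sensor RIG-I, which was at -0.02 with AS1 (adjusted p = 0.944) and -1.11 with AS2 (adjusted p = 0.000755). Its mean change was not called without the first Ctr array (-0.49, adjusted p = 0.0711).

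No member differed between AS2 and AS1 at a limma adjusted p under 0.05, with or without moderation of the variance, where 1.08% of all genes did, and 1 of 8 had an unadjusted p under 0.05. That member was SAMHD1, lower with AS2 than with AS1 by 0.36 (95% interval of AS2 minus AS1 from -0.66 to -0.07, unadjusted p = 0.0208, adjusted p = 0.362). For RRM2 the same interval ran from -0.29 to 0.39, for TK1 from -0.54 to 0.25 and for DUT from -0.70 to 0.04. Both oligonucleotides were set against the same 2 Ctr arrays, so their changes share that error. With AS1 alone 1 of the 7 members was called lower (TK1), where 8.17% of genes were, and 1 higher (DCK), where 11.8% were. With AS2 alone 3 were called lower (TYMS, TK1 and DUT, each losing its call without 1 or more of the arrays named above), where 9.29% were, and none higher, where 11.6% were, DCK having an unadjusted p of 0.0255.

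The 2 Ctr arrays differed in these genes. The second lay above the first for 6 of the 8 members, by 0.33 (RRM2) to 0.60 (TYMS), on 24 of 24 RRM1, 9 of 9 TK1, 9 of 10 TYMS, 8 of 9 DCK, 2 of 2 RRM2 and 6 of 10 DUT probesets. For TK2 and SAMHD1 the Ctr arrays differed by -0.01 each. The second Ctr array was also the higher for 21 of 22 measured genes of S phase and proliferation, by 0.33 on average. Other lists showed this too: 14 of 18 E2F, DP, RB and related factors, 13 of 15 folate genes and 8 of 10 fibroblast genes. It held for 7 of 15 interferon genes and for 0 of 5 endothelial and 0 of 5 leukocyte genes. The share over all genes was not computed. The part of the Ctr difference in the members' changes was not tested beyond the values without each array.

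Genes that work beside the members were read from lists, all against a median change of -0.04 over all genes. For each list, the counts stand against 10.7% of all genes called lower and 14.1% called higher in the mean of both. Of 22 genes of S phase and proliferation, 17 were called lower and 1 higher in the mean of both, with a median of -0.82. The 1 called higher was the kinase CDK2 (0.46 ± 0.14), a call lost without the first Ctr array (0.27, adjusted p = 0.344) or either AS2 array (0.51 and 0.41, adjusted p = 0.0558 and 0.123). Those called lower were led by the proliferation antigen MKI67 (-1.75 ± 0.16, limma adjusted p = 3.89e-05), the cyclin CCNE2 (-1.66 ± 0.19), CDK1 (-1.65 ± 0.20), the kinase that drives mitosis, and POLE2 (-1.58 ± 0.19), a subunit of DNA polymerase epsilon. CCNE2 and POLE2 were dim on the oligonucleotide arrays, at 4.75 to 5.53 and 4.73 to 5.27. Of 18 measured E2F, DP and RB factors and factors that degrade or regulate the members, 9 were called lower and 2 higher, with a median of -0.35. DTL, the substrate receptor of a ubiquitin ligase, was at -1.34 ± 0.17, MYBL2, a transcription factor of the cell cycle, at -1.24 ± 0.15, and E2F8, a repressor of E2F targets, at -1.22 ± 0.12. E2F8 was dim, at 4.61 to 4.70 on the oligonucleotide arrays and 5.70 and 6.04 with Ctr. E2F7, a repressor of the same kind, went the other way at 1.30 ± 0.15 (limma adjusted p = 0.000184), with 10.3 and 10.2 with AS1, 10.3 and 10.3 with AS2, and 9.26 and 8.69 with Ctr. The other called higher was TFDP2, a partner of E2F proteins (0.61 ± 0.14), which was not called without the first Ctr array (0.42, adjusted p = 0.109).

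Other enzymes of deoxynucleotide supply showed no common direction. Of 28 measured, 2 were called lower and 5 higher, where 10.7% and 14.1% of all genes were, with a median of 0.07. Beside RRM2B the largest changes were in UPP1, NT5C3A and PNP, which release or break down nucleosides, while other measured enzymes of that kind (TYMP, NT5C, NT5E, ADA, NT5C2, NT5M and CDA) lay between -0.14 and 0.34 and were not called. UPP1, a uridine phosphorylase, was at 7.70 and 7.77 with AS1, 8.67 and 8.60 with AS2, and 6.79 and 6.58 with Ctr, a mean change of 1.50 ± 0.11 (limma adjusted p = 1.51e-05). NT5C3A, a pyrimidine nucleotidase listed on the platform as NT5C3, was at 1.15 ± 0.11, and PNP, a purine nucleoside phosphorylase listed as NP, at 0.85 ± 0.12. The remaining calls were SLC25A36, a mitochondrial carrier of pyrimidine nucleotides, higher by 0.45 ± 0.14, and the kinases AK5 (-0.49 ± 0.11) and NME3 (-0.44 ± 0.12). These last 3 depended on single arrays: AK5 was not called without the first Ctr array (-0.49, adjusted p = 0.051), NME3 not without the first AS1, the second AS2 or either Ctr array (-0.37 to -0.48, adjusted p from 0.0518 to 0.133), and SLC25A36 kept its call only when the array left out was the second AS1 array (with any other left out 0.34 to 0.54, adjusted p from 0.0515 to 0.215).

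The pathways that feed the members moved little as lists. In the folate cycle, which gives TYMS its methyl group, 3 of 15 were called lower and 1 higher, with a median of 0.08: SHMT2, the mitochondrial serine hydroxymethyltransferase, was at -0.68 ± 0.11 (limma adjusted p = 0.00119), FPGS, which adds glutamates to folates, at -0.49 ± 0.12, the folate carrier SLC19A1 at -0.44 ± 0.11, and MTHFD2L at 0.51 ± 0.13. Of these, FPGS was not called without the second AS2 or second Ctr array (-0.46 and -0.35, adjusted p = 0.0601 and 0.149), SLC19A1 not without the second AS2 or first Ctr array (-0.40 and -0.38, adjusted p = 0.0677 and 0.129), and MTHFD2L not without the first AS2 or first Ctr array (0.50 and 0.35, adjusted p = 0.0559 and 0.173). In purine synthesis 1 of 15 was called lower and 2 higher, with a median of 0.03, among them PRPS1 (-0.38 ± 0.11), ATIC (0.50 ± 0.12) and ADSS1 (0.66 ± 0.11), and HPRT1, not called, was at 0.44 ± 0.19. PRPS1 lost its call without either AS2 or either Ctr array (-0.35 to -0.41, adjusted p from 0.0545 to 0.163) and ATIC without the second AS2 or first Ctr array (0.45 and 0.40, adjusted p = 0.0529 and 0.109), whereas HPRT1 was at 0.098 without the first Ctr array and passed without the second Ctr array (0.78, adjusted p = 0.00749) or the second AS1 array (0.53, adjusted p = 0.0275). In pyrimidine synthesis 1 of 8 was called lower, UCKL1 (-0.79 ± 0.12), and 1 higher, DHODH (0.39 ± 0.11), whose call was lost without either AS2 or either Ctr array (0.34 to 0.45, adjusted p from 0.054 to 0.187), while CTPS2 was at -0.17 ± 0.11 and CAD at 0.17 ± 0.11. Of 5 measured electron donors of ribonucleotide reductase, 1 was called, the thioredoxin reductase TXNRD1 (0.61 ± 0.11, limma adjusted p = 0.00204), and TXN2, GLRX2 and GLRX were at -0.21, 0.11 and 0.04.

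The genes whose values ran closest to a member's over the 6 arrays were found by the root mean square distance after each gene's own Ctr mean was subtracted, among 15410 genes. For RRM2 they were VCAM1, a cell adhesion molecule, at a distance of 0.077, HELLS, a chromatin remodeller, at 0.10, and NCAPG, a condensin subunit, at 0.11. VCAM1 was at 4.40 and 4.25 with AS1, 4.20 and 4.22 with AS2, and 5.82 and 6.18 with Ctr. HELLS was at 4.67 and 4.19 with AS1, 4.41 and 4.43 with AS2, and 5.81 and 6.32 with Ctr. On the oligonucleotide arrays both lay under 5.44, the 25th percentile of probeset brightness. Whether a floor limits the size of their fall, or of the fall of E2F8, CCNE2 and POLE2, was not tested. For TK2 they were ND5, TPRG1L and TMEM185A, and for SAMHD1, IFNGR2, ZFAND5 and TMBIM4, at distances of 0.022 to 0.041. TK2 and SAMHD1 were not called, and a gene that changed as little lies close to them by construction. The distances were not set against those of randomly drawn genes, so a link to the genes named here was not tested.

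The promoters of all 9 members, 250 bases before to 50 after the gene start in RefSeq on GRCh38.p14, were searched on both strands for E2F words (TTTCCCGC, TTTGGCGC, TTTCGCGC and TTTGCCGC), for CCAAT, and for the CHR words TTTGAA and TTCGAA. Neither RRM2 nor TK1, the members that fell most, held an E2F word in this window, and 2 of 9 members did (TYMS and DCK), against 3.33% of 27305 promoters. CCAAT was found in 4 of 9 (RRM1, RRM2, DTYMK and SAMHD1), against 35.7% of promoters, and a CHR word in 2 of 9 (RRM1 and DTYMK), against 16.6%. A match describes the letters and is no measure of binding. Other spellings of these elements were not searched, so a promoter without a listed word may still hold one. The 3 CCAAT words of RRM2, all on the strand of the gene, are shown because they stand in near copies of 1 stretch, and the E2F words of TYMS and DCK because 1 of these genes was lower and the other higher. Capitals mark the words, which in TYMS and DCK read on the opposite strand, and each sequence is 5′ to 3′ on the strand of the gene, the plus strand in all 3.
RRM2 at -123, chr2:10122605-10122631: gcaaggcgcagCCAATgggaagggtcg
RRM2 at -93, chr2:10122635-10122661: gcatggcacagCCAATgggaagggccg
RRM2 at -66, chr2:10122662-10122688: gggcaccaaagCCAATgggaagggccg
TYMS at -39, chr18:657603-657632: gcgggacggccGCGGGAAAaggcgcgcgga
DCK at 22, chr4:70993659-70993688: gctgcctccgcGCGCCAAAgtcaaaccccg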

How the data were processed

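RNA (100 ng per sample) was hybridised to Affymetrix Human Exon 1.0 ST arrays. The authors deposited log2 values per probeset, made with RMA and Partek per the labels, with versions and genome build not given in the sources used here. An array has no read depth, so the number of arrays limits the precision. Probesets were tied to genes by the platform's symbols, which can be old, and 216780 have 1 symbol. Groups and replicate numbers came from the sample titles.

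Probesets with 1 symbol alone were averaged into a gene value, with at least 3 required for the main fit. Genes, and separately probesets, were compared in limma 3.58.1 (R 4.3.3) with 1 fit to 6 arrays and 3 groups, 3 residual degrees of freedom, and Benjamini-Hochberg adjustment over all features. The prior degrees of freedom were 7.447 in the main fit of genes and were estimated apart in the other fits. All confidence intervals used 7.447, also those of RRM2, which came from the second fit. Standard errors stand after ±. Unequal probeset changes were tested with diffSplice on probesets whose mean over the arrays reached the 25th percentile. Within-array differences were tested by exact permutation. Both fits were tested on simulated data first. The gene fit recovered 66% of genes changed by -0.75, 82% of those changed by 0.75 and 100% at -1.6 and 1.6, with 8 false calls of 182. The spreads in that simulation were drawn from limma's own fitted model, so it could not test whether this model holds for the arrays.

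The named genes are the 9 members, MALAT1, up to 4 genes of largest mean change per list, the 3 nearest profiles of RRM2, TK2 and SAMHD1, each member's most deviant probeset, all DUT probesets, and the sequences shown. DCK and TK2 probesets beyond these, CDK2, DDX58, TFDP2, SLC25A36, AK5, NME3, MX1, OAS2 and IRF9 were named after their values were seen. MX1, OAS2 and IRF9 were not tried under other settings. Members and lists were chosen with earlier results of these data known. Alternatives were the median of probesets, filters on dim probesets or genes, other scalings, variance models, thresholds, a block for the replicate number, and each array left out.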

Additional observations from a re-analysis of the deposited data

Results flagged for a closer look

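No member met a rule for a closer look. Among the genes of the lists read beside them, 7 of those named differed between AS2 and AS1 in the test of that difference (limma, adjusted over all genes tested). Of the interferon response genes, the change of IFIT1 was smaller with AS2 than with AS1 (AS2 minus AS1 -2.55, adjusted p = 0.000643). The same difference was -2.39 for IFIT2 (adjusted p = 0.00078), -1.99 for IFIT3 (adjusted p = 0.00643), -1.36 for IFIH1 (adjusted p = 0.000863) and -1.09 for DDX58 (adjusted p = 0.0117), which was lower than Ctr with AS2 (-1.11) and at -0.02 with AS1. It was 0.90 for UPP1 (adjusted p = 0.0118), which was higher with both oligonucleotides and more so with AS2, and 0.66 for CTPS2 (adjusted p = 0.0481), a CTP synthase that was at 0.16 with AS2 and -0.50 with AS1 against Ctr. None of these 7 differences was tried with an array left out or under another setting, and that of CTPS2 lies close to the threshold.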

How the results depend on the processing

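The counts of members called depend on the arrays and on the test. The share of all genes called was computed for the main setting only. A count that moves below is therefore not a result about the members. The number called with AS1 was 2, and was 0 with the median of probesets, 0 without moderation of the variance (the methods' ANOVA), 0 at the methods' threshold (over 2-fold and an unadjusted p under 0.001), and 1 to 3 with 1 array left out. With AS2 it was 3, and was 0 without moderation, 0 at the methods' threshold, 6 with the trend and robust options of limma, and 1 to 4 with 1 array left out. In the mean of both it was 4, and was 1 with the median of probesets, 0 without moderation, 0 at the methods' threshold and 1 to 5 with 1 array left out. With the median of probesets TK1 alone kept its call in the mean of both, so DCK, DUT and TYMS lost theirs. Under that setting TK1 and DCK also lost their calls with AS1. RRM2, outside these counts, kept its call in the mean of both under every setting, and without moderation lost it with AS1 (adjusted p = 0.0635) and AS2 (adjusted p = 0.0554). The replicate number as a block changed none of these 3 counts, but left 4 of 12 probeset calls and 1 of 2 calls of unequal probeset changes. The titles do not say whether the numbers pair the arrays. Deviations of same-numbered arrays correlated at -0.34 (AS1 and AS2), -0.51 (AS1 and Ctr) and 0.39 (AS2 and Ctr). These values have no common sign and do not settle the question. Probeset calls numbered 2 to 7 with 1 array left out. Calls of unequal probeset changes numbered 1 with no filter on dim probesets, 1 with the Simes test, 0 with the splicing index and 0 to 3 with 1 array left out.

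Direction turned only where a change was near 0 and not called. For SAMHD1 with AS1 it was -0.030 with the median of probesets and -0.030 to 0.067 with 1 array left out. For RRM2, AS2 minus AS1 was -0.064 to 0.16 with 1 array left out. In the mean of both, GLRX2 was at -0.29 and GLRX at -0.41 with the median of probesets, and GLRX at -0.027 to 0.10 with 1 array left out. Of the 39 other named genes called in the mean of both, MALAT1 included, 13 lost the call with 1 array left out (AK5, ATIC, CDK2, DDX58, DHODH, FPGS, MTHFD2L, NME3, PRPS1, SLC19A1, SLC25A36, TEK and TFDP2), and HPRT1 gained one. With 2 arrays per group, a member that was not called may still have changed by an amount within its confidence interval.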
